A study of Mus musculus with 4 samples.

Results

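Zbtb16, Tbx21, Eomes, Nfil3 and Rora encode transcription factors with known roles in innate lymphoid cells. Their transcript levels were followed from multipotent progenitors into sorted Thy1+ CD25+ cells. The 5 genes were taken by symbol, with no threshold on their values. Each had 1 single-gene probe set, so all 5 of 5 were measured, among 19938 named genes in all. The cells came from C57BL/6 mouse bone marrow and were measured on 4 Affymetrix whole-transcript arrays, 1 per RNA sample. Pooled wild-type lymphoid-primed multipotent progenitors (LMPPs; no lineage markers, Sca1 and Kit positive, Flt3 high) were kept for 48 hours in the cytokine medium used for transduction and gave 1 array. LMPPs given the Tcf1-VEX retrovirus, which carries Tcf1 (the product of Tcf7) and the marker VEX, were grown to day 10 on OP9 stroma, derived from mouse marrow and lacking a Notch ligand, and gave 2 arrays; these are called Tcf1 cells. LMPPs given the VEX vector alone were grown to day 10 on OP9 that carries the Notch ligand DL4 and gave 1 array; these are called control cells. The transduction medium held IL3 (10 ng/ml) and SCF (20 ng/ml), and all 4 samples had 48 hours in it. Both stromal cultures received IL7 (1 ng/ml) and Flt3L (5 ng/ml) and were passaged at day 6. Both were sorted as live CD45.2+ Mac1- Gr1- Thy1+ CD25+ cells. Vector and stroma therefore differed together between Tcf1 and control cells. Time, stroma, cytokines, sort and virus differed together from the LMPPs, for which no IL7 or Flt3L is listed. In neither comparison can these be told apart. The labels call the Tcf1 arrays biological replicates without saying whether mice or cultures were separate, so p-values measure only the spread between these 2 arrays.

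Innate lymphoid cells are lymphocytes without rearranged antigen receptors that mirror the helper and killer classes of T cells. Nfil3 acts early in their development from bone marrow progenitors, below cytokine receptors such as that of IL7. Zbtb16 encodes PLZF, which marks a committed innate lymphoid precursor and also directs natural killer T cells and some gamma delta T cells. Tbx21 (T-bet) and Eomes are related T-box factors that drive natural killer (NK) cells and interferon-gamma producing cells, and Rora is a nuclear receptor needed for group 2 innate lymphoid cells. Tcf1 itself takes part in both early T cell and innate lymphoid development.

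The arrays were alike in scale, with median log2 signals of 7.47 to 7.59 over the named genes. Across genes, the SD of the difference was 0.24 between the Tcf1 arrays and 0.42 to 0.55 between arrays of unlike groups. The sort markers Thy1 (8.13 in LMPPs, 12.38 and 12.53 in Tcf1 cells, 12.98 in control cells) and Il2ra, which encodes CD25 (6.88, 12.91 and 12.99, 13.64), matched the sort. Of 8 T lineage markers, 5 rose and 0 fell in Tcf1 cells against LMPPs, the sort markers, Bcl11b, Cd247 (1.66) and Cd3g (0.94) among them. Of the same receptor complex as the last of these, Cd3e read 7.32 in LMPPs and 7.45 and 7.42 in Tcf1 cells, against 10.41 in control cells. Tcf7 had no single-gene probe set and is not analysed here. Differences below are in log2 signal and come from limma with Benjamini-Hochberg adjustment over the 19938 genes, with a pass at an adjusted p under 0.05. The limma fit takes the single LMPP and control arrays to vary as the Tcf1 pair did.

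The members split by direction. Zbtb16 was lower in Tcf1 than in control cells (-1.36) and Eomes was lower in Tcf1 cells than in LMPPs (-1.58), and these were the only member differences that passed. Against LMPPs, 1 of 5 members passed, as lower, where 3.06% of all genes passed (1.75% higher and 1.31% lower). Against control cells 1 of 5 passed, as lower, where 4.38% of all genes did (1.90% higher and 2.49% lower). The same members were the only ones at least 2-fold apart, where 2.90% of all genes were against LMPPs (1.79% higher and 1.11% lower) and 3.80% against control cells (1.78% higher and 2.02% lower). At an unadjusted p under 0.05 in limma, 4 of 5 members differed from LMPPs, 2 higher and 2 lower, as did 14.5% of all genes (5.33% higher and 9.22% lower). By the same measure 3 of 5 differed from control cells, 2 higher and 1 lower, as did 14.1% of all genes (5.72% higher and 8.37% lower). Between control cells and LMPPs, 1 array each and without a test, 3 of 5 members (Zbtb16, Eomes and Nfil3) were at least 2-fold apart, 1 higher and 2 lower in control cells, as were 5.53% of all genes (3.17% higher and 2.36% lower). These comparisons share arrays, so they are not independent of each other. In bulk RNA, fewer cells with a transcript and less of it per cell cannot be told apart.

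**Figure D1:**
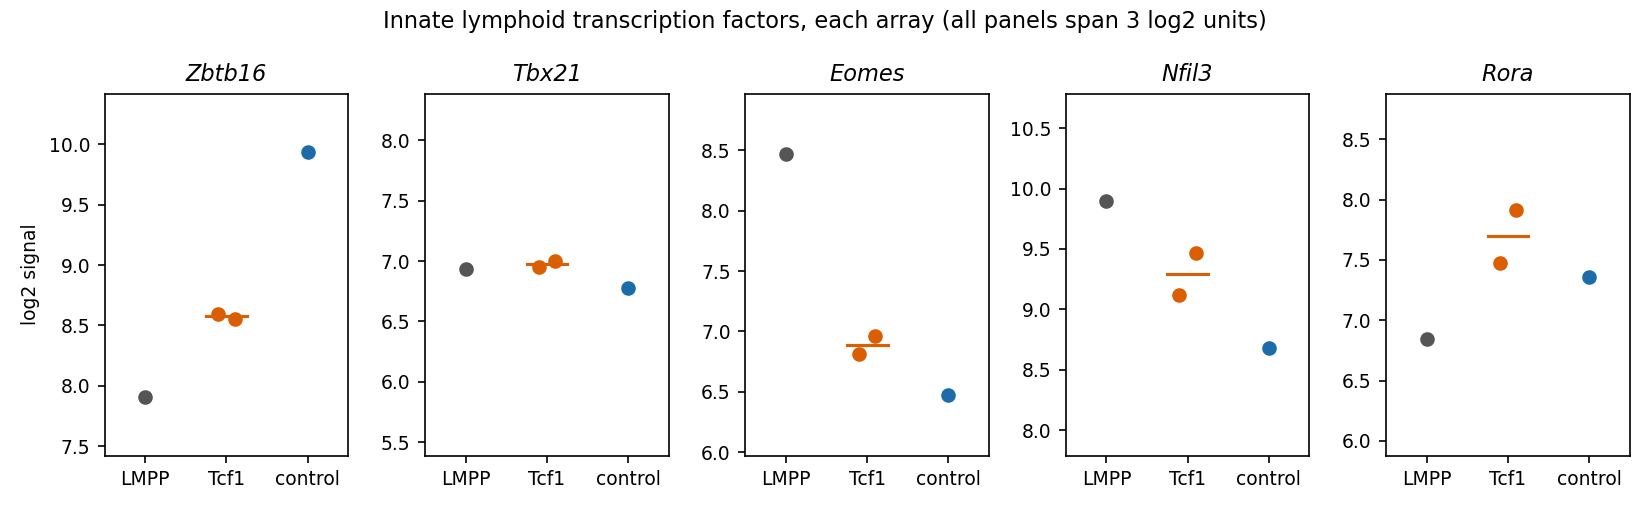
Log2 signal (y axis) of each member on each array, by group (x axis); points are arrays, the short line is the mean of the 2 Tcf1 arrays, and every panel has the same height on the log2 scale. Zbtb16 is highest in the control array at 9.94, Eomes and Nfil3 are highest in the LMPP array at 8.47 and 9.89, Rora is highest in the Tcf1 arrays, and Tbx21 spans 0.22.

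Zbtb16 read 7.90 in LMPPs, 8.59 and 8.56 in the Tcf1 arrays and 9.94 in control cells. The Tcf1 arrays lay close together and between the other groups, with no overlap. Control cells held 4.09 times the LMPP signal, a difference of 2.03 that 1.48% of genes reached or passed in size. Tcf1 cells (8.57 ± 0.03, SD, n = 2) were lower than control cells by 1.36 on the log2 scale (SE 0.16, 95% interval -1.75 to -0.98, adjusted p = 0.0056, limma), a 2.57-fold lower signal seen in both arrays. The unmoderated form of the test, with 1 residual degree of freedom, ended this call (adjusted p = 0.799), while the 5 moderated alternatives gave adjusted p from 1.7e-04 to 0.0097. Against LMPPs the Tcf1 difference was 0.67 (SE 0.16, 95% interval 0.29 to 1.05), which did not pass (adjusted p = 0.0926, limma). It passed with each array centred on its median (adjusted p = 0.0475) and over genes above the 25th percentile (adjusted p = 0.0392), within a range of 0.0392 to 0.153 for the moderated alternatives in limma. The mean level of T lineage markers had the same order as Zbtb16. Of 8, 0 were higher and 4 lower in Tcf1 than in control cells, and their mean log2 level was 6.89 in LMPPs, 8.78 and 8.86 in Tcf1 cells and 10.87 in control cells. This mean includes the sort markers Thy1 and Il2ra. Of the 8, 5 rose against LMPPs, while Cd3e (0.11), Cd3d (0.16) and Ptcra (0.07) did not pass. The part of the T lineage markers in the Zbtb16 difference was not tested.

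The genes whose log2 profile over the 4 arrays lay nearest to that of Zbtb16, each centred on its own mean, were Esm1 (mean absolute difference 0.07), which encodes a secreted proteoglycan, Pgghg (0.07), a glucosidase acting on collagen-type sugars, and Rexo5 (0.07), an RNA exonuclease. Esm1 read 6.19 in LMPPs, 7.02 and 7.11 in Tcf1 cells and 8.37 in control cells, a rise of the same form. With 4 arrays such likeness is common: 164 genes lay within 0.25 of Zbtb16.

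Eomes read 8.47 in LMPPs, 6.81 and 6.96 in the Tcf1 arrays and 6.47 in control cells. The LMPP array stood well above the other 3, which lay between 6.47 and 6.96. Tcf1 cells (6.89 ± 0.11, SD, n = 2) fell by 1.58 from LMPPs (SE 0.17, 95% interval -1.98 to -1.18, adjusted p = 0.0046, limma), to a 2.99-fold lower signal in both arrays. The moderated alternatives gave adjusted p from 6.6e-05 to 0.0066 in limma, and the unmoderated test ended the call (adjusted p = 0.764). Control cells were 3.99-fold below LMPPs, a difference of -2.0 that 1.53% of genes reached in size. Tcf1 cells were 0.42 above control cells (SE 0.17, 95% interval 0.02 to 0.81), which did not pass (adjusted p = 0.327, limma). The groups grown on stroma therefore both read low for this gene, and in them Eomes lay below the median gene of its array, where signal and background could not be separated because detection calls were not used here.

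Tbx21, the other T-box member, read 6.94 in LMPPs, 6.95 and 7.0 in the Tcf1 arrays and 6.78 in control cells. All 4 arrays lay within 0.22 of each other and below the median gene of their array, and 70.5% of genes had a wider range. The Tcf1 difference was 0.04 from LMPPs (95% interval -0.34 to 0.42, adjusted p = 0.97, limma) and 0.20 from control cells (95% interval -0.18 to 0.58, adjusted p = 0.753, limma). The difference between the T-box members was not itself put to a test.

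The profiles nearest to Eomes were those of Slc7a11 (0.04), the cystine transporter of the plasma membrane, Cd300c (0.04), an immunoglobulin-type receptor of myeloid cells, and Khdrbs3 (0.04), an RNA-binding protein. Cd300c read 9.80 in LMPPs, 8.08 and 8.27 in Tcf1 cells and 7.87 in control cells, and 90 genes lay within 0.25 of Eomes. The Tbx21 range was too small to rank likeness.

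Nfil3 read 9.89 in LMPPs, 9.12 and 9.46 in the Tcf1 arrays and 8.68 in control cells. The order was LMPP, Tcf1, control, without overlap, but the Tcf1 arrays were 0.35 apart, a gap that 13.3% of genes reached. Control cells read 2.32-fold below LMPPs (difference -1.21, no test). Tcf1 cells (9.29 ± 0.24, SD, n = 2) differed from LMPPs by -0.60 (SE 0.20, 95% interval -1.07 to -0.13, adjusted p = 0.209, limma) and from control cells by 0.61 (SE 0.20, 95% interval 0.14 to 1.08, adjusted p = 0.194, limma). Neither passed over all genes, in limma or under any alternative run, and the lowest adjusted p was 0.0523 against LMPPs and 0.0609 against control cells. Both intervals excluded 0, so the differences exceeded the error of the single test but did not pass the adjustment over all genes.

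Nfil3 is also expressed in myeloid cells. Of 10 macrophage and monocyte markers, 7 were higher and 0 lower in Tcf1 than in control cells, the direction of Nfil3, while 4 were higher and 0 lower than in LMPPs (median 0.73), the direction opposite to Nfil3, with Adgre1 at 6.89 in LMPPs, 11.10 and 11.43 in Tcf1 cells and 6.51 in control cells. Their mean log2 level was 8.08 in LMPPs, 9.06 and 9.32 in Tcf1 cells and 7.02 in control cells. Of 10 granulocyte markers, 4 were higher and 0 lower in Tcf1 than in control cells, and 1 was higher and 6 lower than in LMPPs, with mean levels of 9.26 in LMPPs, 8.36 and 8.34 in Tcf1 cells and 7.10 in control cells. Of 7 dendritic cell and MHC class II markers, 4 were higher and 0 lower than in control cells, with mean levels of 9.54, 8.76 and 9.38, and 6.55. Against LMPPs 0 of them were higher and 1 lower, Flt3, and LMPPs were themselves sorted as Flt3 high. No marker is at 0 on this log2 scale, and the part of these cells in the Nfil3 signal was not tested. The nearest profiles to Nfil3 were Klhl23 (0.04), a BTB and kelch protein, Raph1 (0.04), an actin regulator at the cell edge, and Itgam (0.04), which encodes the Mac1 chain used to exclude myeloid cells in the sort. Itgam read 8.25 in LMPPs, 7.44 and 7.70 in Tcf1 cells and 7.03 in control cells, and 1471 genes lay within 0.25 of Nfil3.

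Eomes and Nfil3, the members that read lower in both stromal cultures than in LMPPs, have promoters of unlike composition, and these are shown because a shared direction invites comparison of their sequence. The 250 bases before the start of each gene, 5′ to 3′ on its own strand, come from a set of RefSeq promoter windows (GRCm38.p6). The set used held 4 of the 5 members and lacked Zbtb16. The Eomes window lies at chr9:118477939-118478188 on the plus strand and the Nfil3 window at chr13:52981040-52981289 on the minus strand. Capitals mark matches on either strand to 8 motifs, overlapping ones included.
Eomes: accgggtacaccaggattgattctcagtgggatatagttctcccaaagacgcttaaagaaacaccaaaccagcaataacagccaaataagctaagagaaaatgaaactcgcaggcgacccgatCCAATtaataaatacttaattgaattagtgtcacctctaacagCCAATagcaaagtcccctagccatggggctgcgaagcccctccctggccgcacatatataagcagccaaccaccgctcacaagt
Nfil3: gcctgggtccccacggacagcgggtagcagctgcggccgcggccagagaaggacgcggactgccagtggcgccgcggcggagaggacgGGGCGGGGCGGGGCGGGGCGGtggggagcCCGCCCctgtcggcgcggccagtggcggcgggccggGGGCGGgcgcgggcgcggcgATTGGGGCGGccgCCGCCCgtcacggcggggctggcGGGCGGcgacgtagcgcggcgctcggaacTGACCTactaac
The Eomes window was 46.4% G and C, with 71.6% of 32841 mouse promoter windows at or above it, and the Nfil3 window was 81.6%, with 0.746% at or above it. In Eomes the capitals mark 2 CCAAT boxes (CCAAT), a motif in 33.9% of all windows. In Nfil3 they mark 9 GC boxes (GGGCGG), in 32.7% of windows, 1 CCAAT box and 1 ROR half-site (AGGTCA), in 14% of windows, at 12 to 7 bases before the start on the opposite strand. Neither window held the TCF/LEF core (CTTTGA or CTTTGT, 27.6% of windows), the RBPJ core of Notch signalling (TGGGAA, 21.6%) or the T-box half-site (GGTGTGA, 3.33%). The NFIL3 site (TTANGTAA, 2.06%) and the letters TATAAA, searched for as a TATA box (12.4%), were also absent from both. Other forms of the TATA box were not searched, and the Eomes window holds the TATA-like letters tatataag near its end. Among the other members, the Tbx21 window held 1 RBPJ core, 1 CCAAT box and 3 GC boxes, and the Rora window held 0 matches to the 8 motifs. A match is a description of letters and not a binding site, and an absent match covers only these 250 bases.

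Rora read 6.85 in LMPPs, 7.48 and 7.91 in the Tcf1 arrays and 7.36 in control cells. It was the member with the widest gap between the Tcf1 arrays, 0.43, which 7.2% of genes reached. Both Tcf1 arrays lay above both other groups, although Tcf1 replicate 1 exceeded the control array by only 0.12, so the top of this order was within the replicate gap. Tcf1 cells (7.69 ± 0.31, SD, n = 2) differed from LMPPs by 0.85 (SE 0.22, 95% interval 0.34 to 1.36, adjusted p = 0.107, limma), a 1.80-fold higher signal that did not pass. It passed with median centring (adjusted p = 0.0259) and over genes above the 25th percentile (adjusted p = 0.0224), and the moderated alternatives ranged from 0.0224 to 0.0997 in limma. The Tcf1 difference from control cells was 0.33 (95% interval -0.18 to 0.84, adjusted p = 0.644, limma), and control cells read 0.52 above LMPPs. In LMPPs (percentile 38.5 of all genes) and control cells (percentile 48), Rora lay below the median gene of its array. Signal and background could not be separated there, as for Eomes.

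Rora is also expressed in mesenchymal cells. The mean level of markers of stroma, on which these cells grew, had the same order over the arrays, though not every marker did. Of 11 stromal markers, 4 were higher and 0 lower in Tcf1 cells than in LMPPs, and their mean log2 level was 7.26 in LMPPs, 8.15 and 8.46 in Tcf1 cells and 8.0 in control cells. The higher ones were Timp3, Thbs1, Bgn and Fn1, while Col1a1 (8.12 in LMPPs, 8.38 and 8.29 in Tcf1 cells, 8.16 in control cells), Dcn (5.83, 5.86 and 5.94, 5.98) and Lum (4.57, 4.47 and 4.54, 4.56), defining genes of fibroblast-type stroma, spanned at most 0.25 over the arrays, and their part in the Rora signal was not tested. The nearest profiles to Rora were Rsph9 (0.03), a protein of cilia, Edil3 (0.04), a secreted integrin ligand, and Casp6 (0.04), an executioner caspase, and 1820 genes lay within 0.25.

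**Figure D2:**
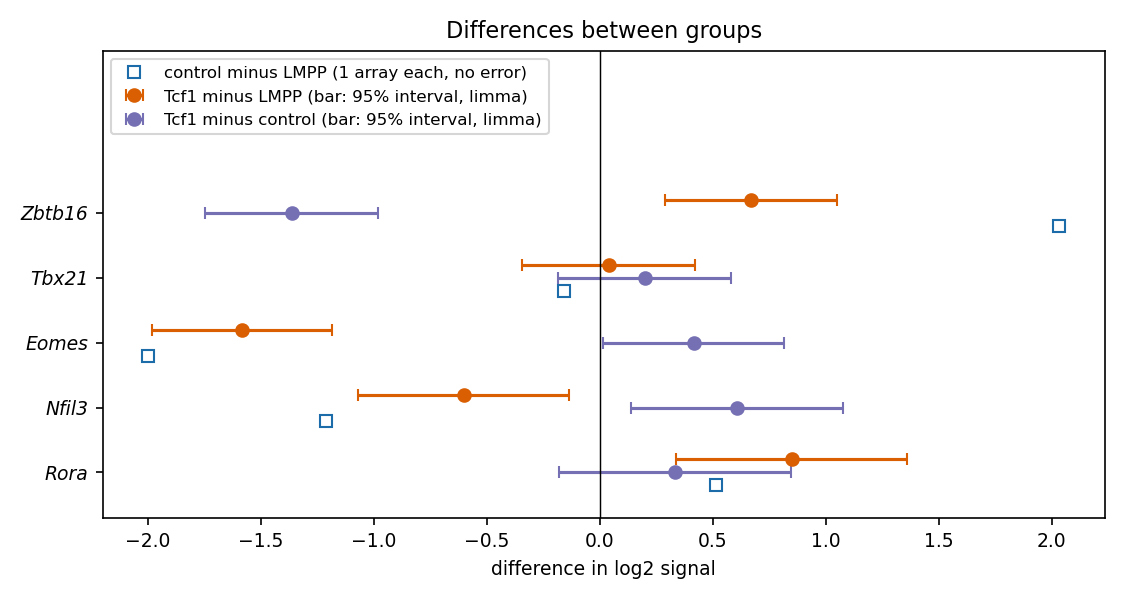
Difference in log2 signal (x axis) for each member (y axis): filled circles are limma differences with 95% intervals, open squares are control minus LMPP from 1 array each. The intervals of Zbtb16 against control cells (-1.75 to -0.98) and of Eomes against LMPPs (-1.98 to -1.18) lie farthest from 0.

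Set between LMPPs and control cells, the members took different places. Both Tcf1 arrays lay between the LMPP and control arrays for 3 of 5 members, where 21.1% of all genes did, and for all 3 members that were at least 2-fold apart between LMPPs and control cells, where 68.1% of the 1102 such genes did. Along the distance from LMPPs to control cells, the Tcf1 mean stood at 32.9% for Zbtb16, 49.7% for Nfil3 and 79.2% for Eomes. Both Tcf1 arrays lay above the other groups for Rora and Tbx21, an order found in 19.3% of all genes. The distances share the same arrays and carry no test.

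**Figure D3:**
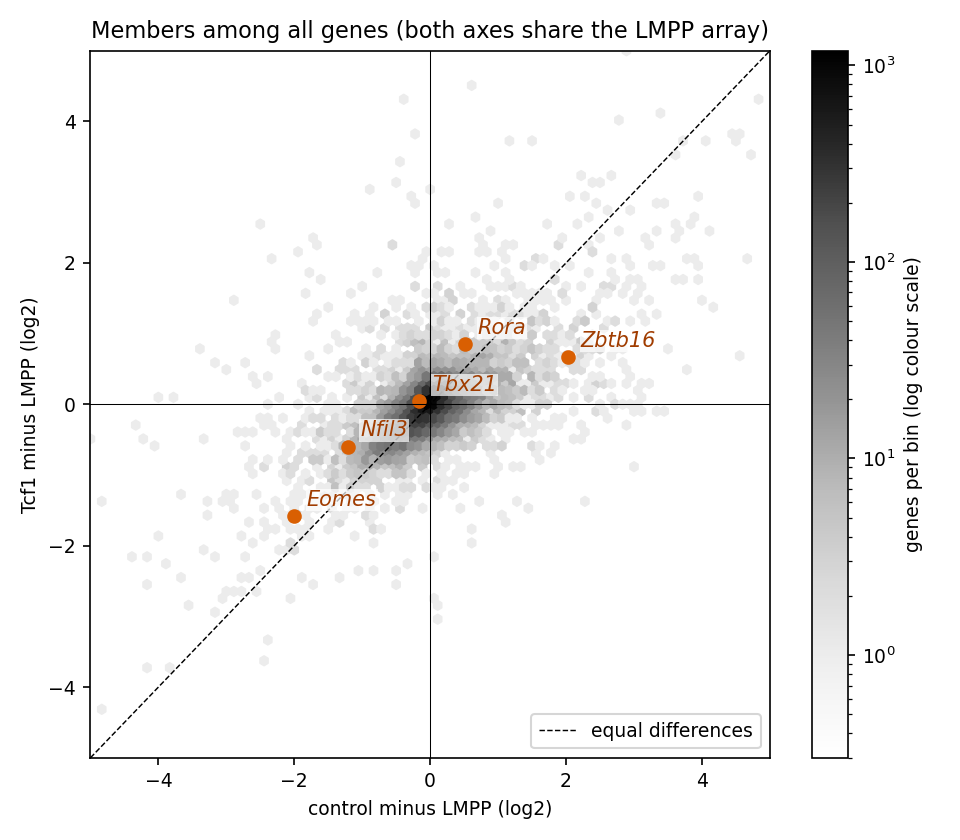
Each member (orange) among all named genes (grey hexagons, darker with more genes, log colour scale), with control minus LMPP on the x axis and Tcf1 minus LMPP on the y axis, both log2; the axes share the LMPP array, so a slope between them carries no information of its own, and 10 genes lie beyond the axes. Zbtb16 lies at 2.03 and 0.67, below the line of equal differences, and Eomes at -2.0 and -1.58, near it.

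Partner factors that work with the members in innate lymphoid and T cell development rose in part against LMPPs. Of 15 measured, 5 rose and 0 fell in Tcf1 cells against LMPPs, with a list median of 0.38 against 0.00 over all genes. The list median was 0.28 with Tcf1 replicate 1 alone and 0.61 with replicate 2 alone. Under each alternative of scaling, filter and probe set rule, 1 factor fell. On the deposited values Runx3 differed by -0.83 and did not pass (adjusted p = 0.0578, limma). The risers were Gata3 (2.54), needed by both T cells and group 2 innate lymphoid cells, Bcl11b (2.08), a factor of T lineage commitment and group 2 cells, Ets1 (1.95), needed for NK cells, Bhlhe40 (1.52) and Ikzf2 (1.30). Id2, the E protein inhibitor that defines innate lymphoid cells, read 11.39 in LMPPs, 10.71 and 11.26 in Tcf1 cells and 10.69 in control cells, and did not pass in either comparison (-0.40 and 0.30). Tox, required for innate lymphoid precursors, read 10.05, then 9.33 and 9.75, then 10.94, and was lower in Tcf1 than in control cells (-1.40). For this and the later lists, the shares of all genes that passed were 1.75% higher and 1.31% lower against LMPPs. Against control cells these shares were 1.90% higher and 2.49% lower.

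Against control cells, 4 of the 15 partner factors were lower in Tcf1 cells and 0 higher, with a median of -0.66 against 0.02 over all genes. Besides Tox these were Ets1 (-1.41), Gata3 (-1.30) and Gfi1 (-1.12), a zinc finger repressor of early lymphoid cells. The count of lower factors ran from 5 to 8 under the alternatives of scaling, filter and probe set rule. The median was -0.86 with Tcf1 replicate 1 alone and -0.44 with replicate 2 alone. Like Zbtb16, Gata3 (7.58 in LMPPs, 9.95 and 10.29 in Tcf1 cells, 11.42 in control cells) and Ets1 (7.34, 9.14 and 9.44, 10.70) had Tcf1 arrays between the other groups.

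**Figure D4:**
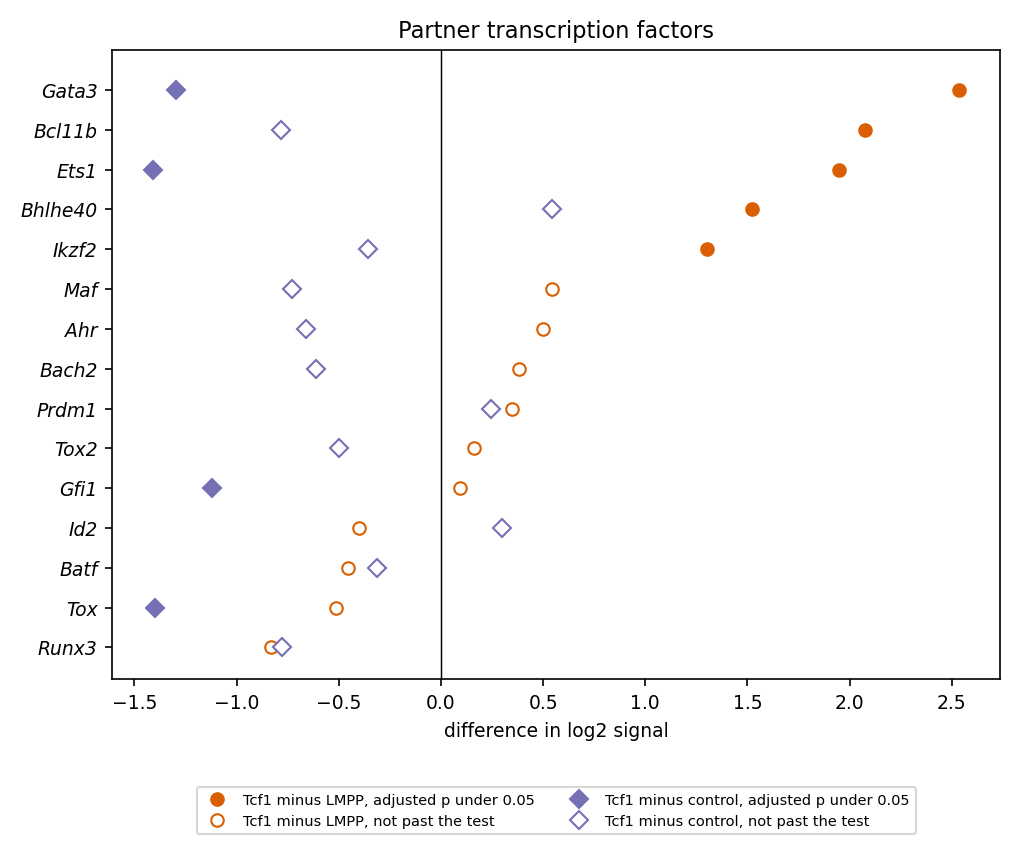
Differences in log2 signal (x axis) for 15 partner factors (y axis), Tcf1 minus LMPP as circles and Tcf1 minus control as diamonds, filled where the limma adjusted p is under 0.05. The 5 filled circles lie above 0 and the 4 filled diamonds below it.

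Effector and receptor genes that T-bet and Eomes are known to act on moved in both directions. Of 22 measured, 5 rose and 1 fell in Tcf1 cells against LMPPs (median 0.42, from 0.27 with replicate 1 alone to 0.58 with replicate 2 alone, and 5 to 9 risers under the alternatives), while Eomes fell and Tbx21 differed by 0.04. The risers were Gzmb (2.18), a cytotoxic granule protease, Ccl5 (2.12), a chemokine, Il2rb (1.77), the receptor chain shared by IL2 and IL15, Il12rb2 (1.30), a chain of the IL12 receptor, and Itga2 (1.12), the integrin chain CD49b of NK cells. Il18rap, a chain of the IL18 receptor, fell by 1.90. Ifng, the signature cytokine of T-bet, read 6.62 in LMPPs, 6.54 and 6.85 in Tcf1 cells and 6.65 in control cells, and Prf1, perforin, read 7.54, then 7.35 and 7.49, then 7.25.

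Against control cells, 3 of these 22 genes were higher and 4 lower in Tcf1 cells (median 0.10; 4 to 6 higher under the alternatives). Higher were Ccl5 (1.93), Klrd1 (1.85), which encodes the CD94 receptor chain, and Xcl1 (1.00), a chemokine. Lower were Gzma (-3.91), another granule protease, Nkg7 (-1.45), a granule membrane protein, Il18r1 (-1.22) and Tnfsf10 (-1.17), the death ligand TRAIL. Gzma read 7.25 in LMPPs, 7.89 and 7.94 in Tcf1 cells and 11.82 in control cells, so the control array stood far above the other 3. The NK receptors Ncr1 (5.39 in LMPPs, 5.62 and 5.87 in Tcf1 cells, 5.37 in control cells) and Klrb1c (4.71, 4.67 and 4.82, 4.80) lay below the 25th percentile gene on every array.

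**Figure D5:**
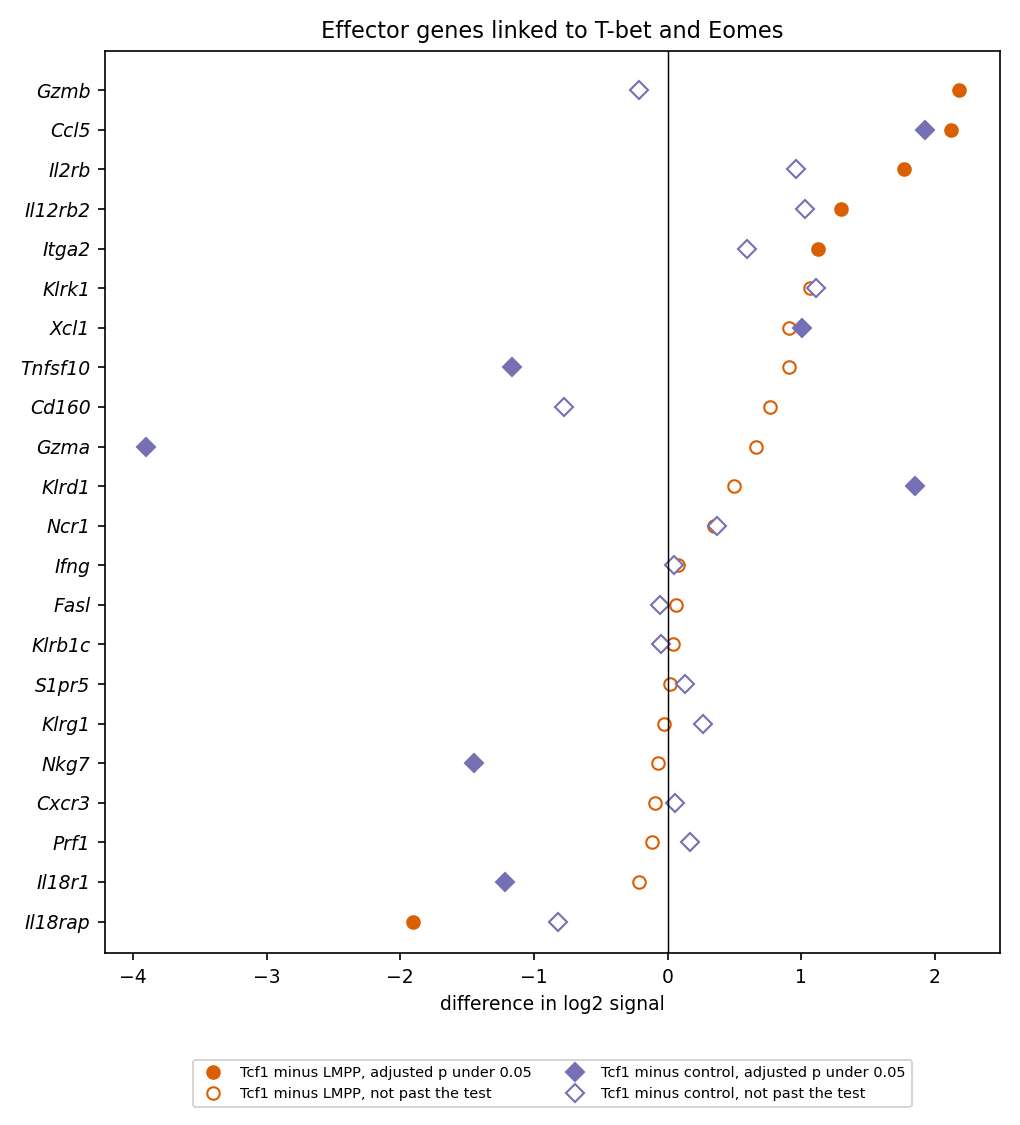
Differences in log2 signal (x axis) for 22 effector and receptor genes linked to T-bet and Eomes (y axis), Tcf1 minus LMPP as circles and Tcf1 minus control as diamonds, filled where the limma adjusted p is under 0.05. Gzma lies farthest left at -3.91 against control cells, and Ifng, Fasl and Klrb1c lie near 0 in both comparisons.

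Genes linked to PLZF in innate-like T cells included 5 that were lower and 1 that was higher in Tcf1 than in control cells, of 16 measured (median -0.32). Lower were Il17rb (-2.01), a receptor of IL25, Il12rb1 (-1.36), Sh2d1a (-1.35), the adaptor SAP needed by natural killer T cells, Itgae (-1.31), an integrin chain, and Id3 (-1.16), an E protein inhibitor. The exception was Cd44 (1.55), an adhesion receptor that PLZF is known to raise. Against LMPPs, 3 of the 16 rose and 1 fell (median 0.18, from 0.11 with replicate 1 alone to 0.27 with replicate 2 alone; 2 to 3 fell under the alternatives). The risers were Slamf1 (2.25), a receptor of natural killer T cell selection, Il17rb (1.94) and Itgae (0.91), and Cd44 fell by 0.87. Il4, a cytokine of natural killer T cells, read between 6.31 and 6.51 on the 4 arrays.

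Of the surface genes of innate lymphoid precursors, the sort markers rose most. Of 13 measured, 7 rose and 1 fell in Tcf1 cells against LMPPs (median 1.54), but Il2ra (6.07) and Thy1 (4.33) are the sort markers themselves. The others were Il7r (2.95), the receptor chain of IL7, Pdcd1 (2.20), which encodes PD1 and marks innate lymphoid precursors, Cxcr5 (2.06), Il2rb (1.77) and Kit (1.54). Flt3, for which LMPPs were sorted as high, fell by 0.91. Pdcd1 read 7.32 in LMPPs, 9.44 and 9.60 in Tcf1 cells and 8.04 in control cells and was higher in Tcf1 than in control cells by 1.48, in the opposite direction to Zbtb16. Flt3 was also higher than in control cells (4.24), while Cxcr5 (-1.77), Cd7 (-1.72) and Il18r1 (-1.22) were lower; the median was -0.52, and 2 to 4 were higher and 3 to 6 lower under the alternatives of scaling, filter and probe set rule.

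Genes of group 2 cells, for which Rora is needed, moved through few members. Of 12 measured, 3 rose and 0 fell against LMPPs (median 0.30, or 0.19 with replicate 1 alone): Il2ra, Ccr4 (2.41), a chemokine receptor, and Il17rb. Against control cells 0 were higher and 2 lower, Il17rb (-2.01) and Ccr4 (-1.25), with a median of 0.02 that turned to -0.02 after median centring or over genes above the 25th percentile. The defining cytokines Il5 (5.34 in LMPPs, 5.51 and 5.25 in Tcf1 cells, 5.40 in control cells) and Il13 (7.40, 7.76 and 7.64, 7.47) did not pass in either comparison. Of 11 genes of group 3 innate lymphoid cells, 3 rose (Cxcr5, Tnfsf11 at 1.35 and Lta at 0.97) and 1 fell (Nrp1, -2.75) against LMPPs (median 0.50, from 0.28 with replicate 1 alone to 0.72 with replicate 2 alone). Against control cells 0 were higher and 4 lower in Tcf1 cells (Nrp1 at -2.78, Cxcr5, Ltb at -1.33 and Tnfsf11 at -1.0, median -0.66), and 4 to 6 were lower under the alternatives. Il17a and Il17f, their cytokines, read 6.30 to 6.45 and 7.0 to 7.24 on the 4 arrays.

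Rora and Nfil3 are also parts of the circadian clock, Rora as an activator and Nfil3 as a repressor of clock output genes. Of 15 clock genes, 1 rose and 2 fell in Tcf1 cells against LMPPs: Bhlhe40 (1.52) rose, and Bhlhe41 (-0.96), its relative, and Hlf (-1.58), a factor that binds the same sites as Nfil3, fell. The clock median was -0.16, and it turned to 0.03 with replicate 2 alone. Against control cells, Ciart (-1.04), a repressor of the clock, was the only 1 of the 15 that passed, where 4.38% of all genes did (median -0.17, or -0.02 with replicate 2 alone; 1 to 3 lower under the alternatives). Arntl, the core activator, read 7.58 in LMPPs, 7.72 and 8.10 in Tcf1 cells and 8.83 in control cells, and Nr1d1, the repressor that competes with Rora for its sites, differed by -0.23 from LMPPs without passing.

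Upstream of Nfil3, genes of IL7 and IL15 signalling rose in part while Nfil3 differed by -0.60. Of 13 measured, 4 rose and 0 fell against LMPPs (median 0.32, from 0.27 with replicate 1 alone to 0.46 with replicate 2 alone). The 4 were Il7r (2.95), Il2rb (1.77), Socs3 (1.45) and Socs1 (1.15), the last 2 being feedback inhibitors of cytokine signalling. Il7r read 9.27 in LMPPs, 12.11 and 12.33 in Tcf1 cells and 11.51 in control cells. IL7 was given to both stromal cultures and is not listed for the LMPPs, and its part in these differences was not tested. None of the 13 passed against control cells in limma, where 4.38% of all genes did (median -0.14, or 0.01 with replicate 2 alone). Under the alternatives, up to 3 were higher and 1 lower. At an unadjusted p under 0.05 in limma, 6 of the 13 differed from control cells, as did 14.1% of all genes.

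The members have relatives in their gene families. Of 26 measured T-box, ROR, BTB zinc finger and PAR leucine zipper genes, 0 rose and 1 fell (Hlf) against LMPPs, where 3.06% of all genes passed, and 0 passed against control cells, where 4.38% did, with medians of 0.02 (-0.02 after median centring and -0.03 with replicate 1 alone) and -0.05. At an unadjusted p under 0.05 in limma, 2 of the 26 differed from LMPPs and 4 from control cells, against 14.5% and 14.1% of all genes, so these counts lie near the shares over all genes. Zbtb7b, the CD4 lineage factor ThPOK, differed by 0.53 and 0.72, and Bcl6, a BTB repressor, by -0.24 and -0.55, without passing. Markers of NK and type 1 cells had mean log2 levels of 6.79 in LMPPs, 7.17 and 7.38 in Tcf1 cells and 7.28 in control cells over 14 genes. All 14 are also among the 22 effector and receptor genes linked to T-bet and Eomes, so they are not a separate readout. Against LMPPs 2 of them rose (Gzmb and Itga2) and 0 fell, and 2 to 5 rose under the alternatives of scaling, filter and probe set rule. Against control cells 2 were higher and 2 lower. Markers of innate-like T cells had mean levels of 6.85, then 7.32 and 7.51, then 8.12 over 10 genes, an order shared with Zbtb16; 3 of them, Blk (-3.38), Cd163l1 (-2.02) and Sh2d1a, were lower in Tcf1 than in control cells and 0 higher, and their part in the Zbtb16 difference was not tested.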

How the data were processed

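RNA was measured on 4 arrays: LMPPs (1), Tcf1 cells (2) and control cells (1). The authors deposited log2 values, 1 per probe set and array, made with RMA and Partek 6.5 per the submitters' processing notes; the log base was taken from RMA and the value range, and no build was needed for them. Neither scanner data nor detection calls entered the work, and the number of arrays limits the precision. Of 35399 probe sets, 21789 carried a single symbol; the probe set with the highest mean stands for each of 19938 genes. A model with a mean per group was run in limma 3.58.1 (R 4.3.3), with Benjamini-Hochberg adjustment over all genes (1 residual degree of freedom, 6.78 with the prior) and tested on simulated data. Fold changes are differences of log2 signal. The members and the 9 pathway and 11 marker lists were chosen with earlier results of these data known. Of the list entries, 241 of 267 were measured, and 16 genes sit in more than 1 pathway list. Marker lists also share genes with pathway lists. The measured NK and type 1, group 2 and group 3 markers all lie within pathway lists, so their counts repeat genes already counted. Named genes are the members, up to 4 genes of each list with the largest differences in each tested comparison, and the 3 nearest profiles of members whose arrays spanned at least 1; others were named after their values were seen. The alternatives were an intensity trend, no moderation, renewed quantile normalization, median centring, a filter at the 25th percentile, the mean of probe sets and leaving out a Tcf1 array. The marker lists not described further were group 2 (1 rose and 0 fell against LMPPs; 0 higher and 1 lower against control cells), group 3 (3 and 0; 0 and 3), B lineage (0 rose and 1 fell against LMPPs; 0 higher and 1 lower against control cells) and mast cells with basophils (1 rose and 1 fell; 0 higher and 1 lower).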

Additional observations from a re-analysis of the deposited data

How the results depend on the processing

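The number of genes past the test was 610 between Tcf1 cells and LMPPs and 874 between Tcf1 and control cells. Against LMPPs it became 936 with an intensity trend, 12 without moderation, 1456 with median centring and 1196 over genes above the 25th percentile, and against control cells 12, 1646 and 1437 for the last 3 of these. Median centring moved the share of higher genes from 57.2% to 41.7% against LMPPs and from 43.2% to 36.6% against control cells. All member differences kept their sign under every alternative run, and without either Tcf1 replicate. Only renewed quantile normalization, median centring and leaving out a Tcf1 array could change these differences, since each member has 1 probe set. Among the alternatives run, the calls for Zbtb16 and Eomes were lost only without moderation, and Zbtb16 and Rora gained a call against LMPPs with median centring and with the filter. Of 320 list medians under the alternatives, 222 moved by no more than the replicate spread, and 126 of 160 list counts stayed within 1.5 times. That spread is the SD of the medians with either Tcf1 array left out, so medians with an array left out nearly always lie within it. Control minus LMPP uses no Tcf1 array and has no such spread, so any change there counted as moved. The 222 therefore does not measure stability. No paired analysis was possible because the LMPP and control groups have 1 array each. Without a Tcf1 replicate no residual degree of freedom is left, so those values carry no test.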
